A study of Homo sapiens and Homo sapiens
Mus musculus with 19 samples.

Results

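A set of 10 transcription regulators associated with the mesenchymal state of neuroblastoma (NB) was followed in SK-N-Be2c cells with and without a TWIST1 knockout (KO). The members were the homeobox genes PRRX1, MEOX1 and MEOX2, the T-box gene TBX18, the AP-1 genes FOSL1 and FOSL2, the RUNX genes RUNX1 and RUNX2, and the Hippo pathway coactivators YAP1 and WWTR1 (TAZ). They were found by their gene symbols, and all 10 were present among the 57820 genes of the human table. All 10 also passed the filter on low counts and were tested, together with 17222 other protein-coding genes.

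NB cells are known to occur in an adrenergic state, held by regulators such as HAND2 and GATA3, and in a mesenchymal state, in which PRRX1, AP-1, RUNX and TEAD-linked regulators are active. PRRX1 can on its own move adrenergic cells towards the mesenchymal state. FOSL1 and FOSL2 pair with JUN proteins to form AP-1, which opens enhancers of mesenchymal genes, whereas RUNX1 and RUNX2 bind DNA together with CBFB. YAP1 and TAZ have no DNA-binding domain of their own and act through TEAD proteins when the Hippo kinases are inactive. TWIST1 is a basic helix-loop-helix factor that binds E-boxes and is best known for its role in epithelial-mesenchymal transition.

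The SK-N-Be2c line, which carries amplified MYCN, is an established model of human NB. The 4 groups were 3 Control clones (wild type) and 3 sgTWIST1 clones (TWIST1 edited by CRISPR/Cas9) in culture, and 4 Control and 4 sgTWIST1 tumors. The tumors, named ortho_1, came from cells placed in the left adrenal gland of athymic Swiss nude mice 6 to 7 weeks old, which lack T cells, and were grown to 1000 mm3. The protocol among the labels gives 500000 injected cells and another part of the labels gives fewer. All groups came from a single line, and nothing in the labels said that the clones were derived independently, so that the p values measure the spread between these samples, which may be technical.

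Human counts per sample were between 21426499 and 49990985. TWIST1 RNA remained at 33.1 ± 7.71 CPM (SD, n = 3) in sgTWIST1 clones against 70.4 ± 6.95 in Control clones, and edits of the coding sequence need not remove the RNA of a gene. TRIM28, a corepressor gene that was not the stated target, was at 227 ± 35.1 CPM in Control clones and at 0.56 ± 0.164 CPM in sgTWIST1 clones, and at 188 ± 57.5 against 1.01 ± 0.631 CPM in the tumors. The absence of TWIST1 and the near absence of TRIM28 RNA cannot be told apart in any comparison of Control with sgTWIST1. Of 17 adrenergic markers, 14 were above 1 RPKM (CPM per kilobase of exon) in both groups of clones, and so were 8 of 16 markers of the mesenchymal state.

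The libraries differed in how much they read from genes that should be silent. The summed level of 363 olfactory receptor genes, which are silent in most tissues, was between 15.02 and 53.7 CPM in the clones. It varied far more among tumors, at 36.0, 148, 2.11 and 34.8 CPM in Control tumors 1 to 4 and at 43.7, 115, 121 and 4.25 CPM in sgTWIST1 tumors 1 to 4. This set of genes was chosen after the data had been seen, and it is used below as the level at which silent genes were read in each library.

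Promoters are shown for TBX18 and FOSL2, the members with the largest differences between Control and sgTWIST1. The stretches run from 250 bases before the RefSeq start site to 20 bases after it, on assembly GRCh38.p14. Capitals mark E-boxes (CANNTG) and AP-1 motifs (TGANTCA) on either strand. FOSL2 is read from the plus strand of chr2:28392608-28392877 and TBX18 from the minus strand of chr6:84764579-84764848.
FOSL2: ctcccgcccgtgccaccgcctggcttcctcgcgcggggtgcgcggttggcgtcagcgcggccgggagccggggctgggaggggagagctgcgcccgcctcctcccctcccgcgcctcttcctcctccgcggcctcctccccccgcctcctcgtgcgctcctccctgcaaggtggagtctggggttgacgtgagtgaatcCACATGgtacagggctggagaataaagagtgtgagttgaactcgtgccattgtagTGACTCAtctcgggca
TBX18: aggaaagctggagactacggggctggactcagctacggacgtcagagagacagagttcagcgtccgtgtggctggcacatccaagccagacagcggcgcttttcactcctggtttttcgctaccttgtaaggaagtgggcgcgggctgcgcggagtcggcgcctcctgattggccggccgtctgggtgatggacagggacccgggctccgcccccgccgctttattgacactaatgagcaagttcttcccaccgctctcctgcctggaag
The TBX18 window held none of the motifs searched. The FOSL2 window held 1 E-box, starting 51 bases before the start site, and 1 AP-1 motif, starting 4 bases after it. The motifs were searched in windows of 300 bases, which end 50 bases after the start site and so run past the printed stretches. Among 35116 such windows, 68.7% held an E-box and 7.71% an AP-1 motif. Windows were found for 8 of the 10 members, all but FOSL1 and MEOX1. The TEAD motif GGAATG, held by 14.03% of all windows, occurred once in the YAP1 and RUNX1 windows and in 1 of the pair of RUNX2 windows. The RUNX motif TGTGGT, held by 13.1% of all windows, occurred 4 times in the other RUNX2 window and once each for MEOX2 and for 1 of the pair of WWTR1 windows. The E-box form CATCTG, held by 14.7% of all windows, was found for 1 member, WWTR1.

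FOSL2 was the most abundant member per length in all 4 groups. Its mean was 10.1 RPKM in Control clones, 17.6 in sgTWIST1 clones, 1.57 in Control tumors and 16.8 in sgTWIST1 tumors. In sgTWIST1 tumors this level lay at percentile 86.8 of all protein-coding genes, and in Control tumors at percentile 48.4. TBX18 came next in Control clones, at 2.86 RPKM, and FOSL1 in the other groups, at 0.552 to 1.29 RPKM. The remaining members were below 1 RPKM in every sample and in every group. In Control clones the order below TBX18 and FOSL1 was YAP1, WWTR1, MEOX2, PRRX1, MEOX1, RUNX2 and RUNX1, from 0.354 to 0.0935 RPKM, and the ranges of neighbours in this order overlapped.

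The first comparison asked which members differed between Control and sgTWIST1 cells in culture. Differential expression (DE) was called where the log2(FC) was at least 1 in size and the adjusted p was below 0.05, and a positive log2(FC) meant upregulated by TWIST1, that is higher in Control. This wording gives the direction only, since the groups also differed in TRIM28 RNA. Of the 10 members, 3 were DE in cells: TBX18 and YAP1 were upregulated and FOSL1 was downregulated by TWIST1. Among all genes tested 14.2% were DE. The median log2(FC) over the members was 0.27, beside 0.04 over all genes.

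TBX18, a T-box repressor of mesodermal and epicardial tissue, showed the largest difference. Its level was 27.4, 18.0 and 28.8 CPM in the Control clones and 0.181, 0.319 and 0.922 CPM in the sgTWIST1 clones. The groups were far apart, and the sgTWIST1 clones held only 6 to 16 counts each. The log2(FC) was 5.84 ± 0.484 (SE), with an adjusted p of 3.2e-05 by edgeR. Set against the olfactory receptor genes per length, TBX18 was 52.6 to 65.3 times higher in the Control clones and 0.875 to 2.14 times as high in the sgTWIST1 clones, so that in the latter it was read about as often as silent genes. The 20 nearest genes tested on chromosome 6 had a median log2(FC) of 0.41, and 7 of them were upregulated and none downregulated, where 14.2% of all genes were DE in either direction. In tumors the 20 nearest genes had a median of 0.06, with 2 upregulated and 1 downregulated, where 10.9% of all genes were DE.

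YAP1 was measured at 1.50, 2.57 and 2.64 CPM in Control clones and at 0.332, 0.669 and 1.04 CPM in sgTWIST1 clones. The log2(FC) was 1.74 ± 0.468 with an adjusted p of 0.0224. All values were below 3 CPM, with 42 to 69 counts against 11 to 21, and the groups did not overlap. YAP1 was no longer DE without Control clone 3 (log2(FC) 1.62, adjusted p = 0.0913), without sgTWIST1 clone 1 (1.41, adjusted p = 0.07) or without sgTWIST1 clone 2 (1.75, adjusted p = 0.0833).

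FOSL1 (FRA1), an AP-1 subunit that is prominent in invasive cells, moved the opposite way. Its level was 1.14, 0.521 and 1.03 CPM in Control clones and 2.38, 1.63 and 3.28 CPM in sgTWIST1 clones. The sgTWIST1 clones were all above the Control clones, with a log2(FC) of -1.45 ± 0.431 and an adjusted p of 0.0346. The call was lost, with an adjusted p of 0.0604 to 0.107, without Control clone 2, Control clone 3, sgTWIST1 clone 1 or sgTWIST1 clone 3.

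FOSL2 (FRA2), the partner gene of the same family, was at 79.6, 70.1 and 66.3 CPM in Control clones and at 140, 100 and 138 CPM in sgTWIST1 clones. Every sgTWIST1 clone was above every Control clone, and the log2(FC) was -0.83 ± 0.174 with an adjusted p of 0.0074. This passed the p value threshold but not the fold threshold, so that FOSL2 was not called DE in cells.

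RUNX1 did not overlap between the groups either, with 1.35, 1.45 and 1.56 CPM in Control and 0.784, 0.797 and 0.749 CPM in sgTWIST1 clones. Its log2(FC) was 0.87 ± 0.345 and its adjusted p 0.092. Per length, RUNX1 was 1.59 to 2.92 times as high as the olfactory receptor genes in Control clones and 0.968 to 2.85 times in sgTWIST1 clones. On that scale the groups overlapped, near the level at which silent genes were read. YAP1 did not overlap on it (4.58 to 12.8 in Control against 2.52 to 3.31 in sgTWIST1 clones). Neither did WWTR1 (3.29 to 9.92 against 11.4 to 23.5) or MEOX1 (2.12 to 3.09 against 3.47 to 7.67), which overlapped in CPM. The share of all genes without overlap on that scale was not computed. In all, 5 of the 10 members (TBX18, YAP1, FOSL1, FOSL2 and RUNX1) did not overlap in CPM between Control and sgTWIST1 clones, and the same held for 44.5% of all genes tested.

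WWTR1, the paralog of YAP1, was at 1.42, 2.64 and 3.53 CPM in Control and at 3.47, 4.02 and 5.59 CPM in sgTWIST1 clones, where Control clone 3 lay within the range of the sgTWIST1 clones. Its log2(FC) was -0.80 ± 0.376 (adjusted p = 0.152 by edgeR), of opposite sign to that of YAP1. PRRX1, MEOX1, MEOX2 and RUNX2 had log2(FC) between -0.32 and 0.88 with adjusted p values from 0.425 to 0.79, and their groups overlapped in CPM. They held 2 to 52 counts per clone and were 1.44 to 7.67 times as high as the olfactory receptor genes per length.

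**Figure D1:**
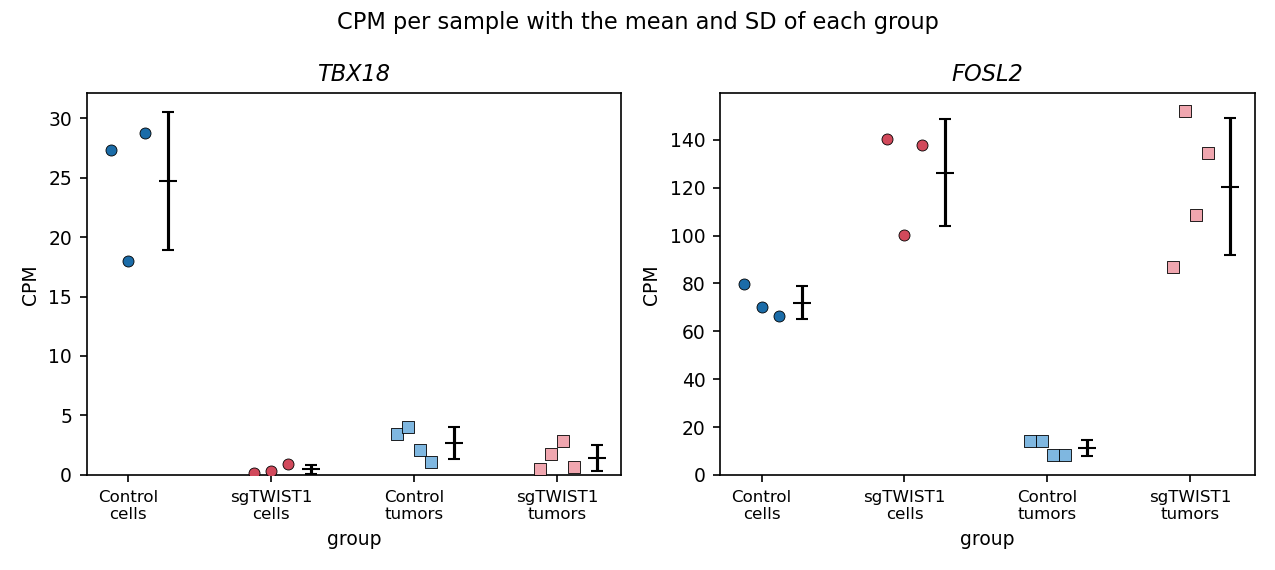
CPM of TBX18 (left) and FOSL2 (right) per sample in the 4 groups, with the mean and SD of each group beside the points; both axes start at 0. TBX18 is at 18.0 to 28.8 CPM in Control clones and at most 4.06 CPM elsewhere, and FOSL2 is at most 14.1 CPM in Control tumors and at least 66.3 CPM elsewhere.

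In tumors the same comparison called 1 member, FOSL2, while 10.9% of all genes tested were DE. The median log2(FC) over the members was -0.42, beside -0.06 over all genes. In bulk tumors, fewer cells that express a gene and less RNA per cell cannot be told apart.

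FOSL2 was at 14.1, 14.1, 8.23 and 8.43 CPM in Control tumors and at 86.9, 152, 109 and 134 CPM in sgTWIST1 tumors. The lowest sgTWIST1 tumor was thus well above the highest Control tumor, with 2043 to 3632 counts against 284 to 415. The log2(FC) was -3.35 ± 0.251 with an adjusted p of 6.19e-06. It was the only member without overlap in CPM between the groups of tumors, against 29.6% of all genes. Set against the olfactory receptor genes per length, the groups overlapped, at 11.3 to 464 times in Control and 107 to 3752 times in sgTWIST1 tumors. Leaving out the 3 tumors of highest olfactory receptor level gave -3.34.

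**Figure D2:**
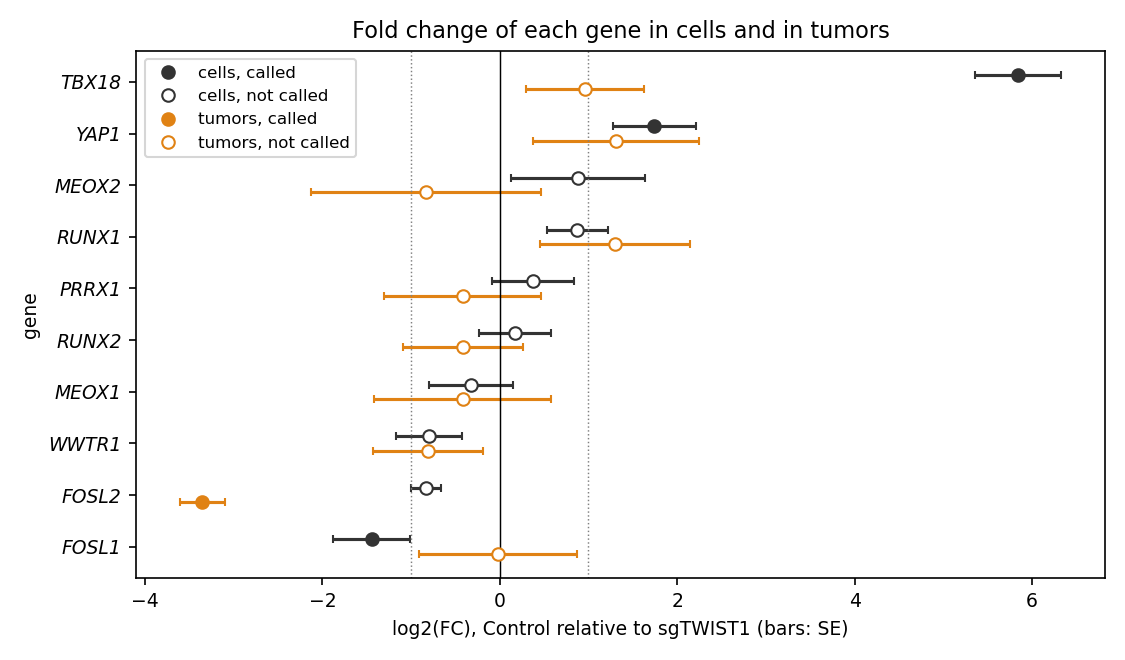
Log2(FC) of Control relative to sgTWIST1 with SE (bars) for each member in cells (black) and in tumors (orange); filled points are DE and dotted lines mark the fold threshold of 1 in each direction. TBX18, YAP1 and FOSL1 are DE in cells and FOSL2 in tumors.

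TBX18 was at 3.47, 4.06, 2.11 and 1.10 CPM in Control tumors and at 0.504, 1.75, 2.87 and 0.702 CPM in sgTWIST1 tumors. The ranges overlapped, and the log2(FC) was 0.96 ± 0.662 with an adjusted p of 0.366 by edgeR. In sgTWIST1 tumors its highest values were those of tumors 2 and 3, which also had the highest olfactory receptor levels of that group. Per length, TBX18 was 98.3 times as high as the olfactory receptor genes in Control tumor 3 (74 counts). It was 16.2 times as high in sgTWIST1 tumor 4 (19 counts), and 1.13 to 9.48 times in the other tumors. Control tumor 3 and sgTWIST1 tumor 4 had the lowest olfactory receptor levels.

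RUNX1 was at 4.69, 7.28, 2.42 and 3.00 CPM in Control tumors and at 1.06, 3.21, 3.19 and 0.037 CPM in sgTWIST1 tumors, where the last value was 1 count. YAP1 was at 2.21, 4.15, 0.912 and 1.36 CPM in Control tumors and at 0.336, 1.54, 1.75 and 0.037 CPM in sgTWIST1 tumors, again with 1 count in sgTWIST1 tumor 4. Neither was DE, with a log2(FC) of 1.297 ± 0.848 for RUNX1 (adjusted p = 0.334) and of 1.31 ± 0.938 for YAP1 (adjusted p = 0.389).

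The values of both genes moved with the olfactory receptor level within each group of tumors. With that level as a term in the fit, an alternative added after the data had been seen, RUNX1 had a log2(FC) of 2.02 (adjusted p = 0.0294) and YAP1 of 1.98 (adjusted p = 0.022), and both were then DE by edgeR. Without the 3 tumors of highest olfactory receptor level, YAP1 was DE at 3.06 (adjusted p = 0.0444). Of the sgTWIST1 tumors that fit kept only tumor 1, with 12 YAP1 counts, and tumor 4, with 1 count.

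WWTR1 was at 1.90, 3.79, 0.912 and 1.31 CPM in Control tumors and at 1.60, 7.58, 3.77 and 1.66 CPM in sgTWIST1 tumors. The log2(FC) of WWTR1 was -0.81 ± 0.621 (adjusted p = 0.431 by edgeR). The difference had the sign and nearly the size it had in cells, but the groups overlapped. FOSL1, which was downregulated by TWIST1 in cells, had a log2(FC) of -0.02 ± 0.894 in tumors, with ranges of 0.142 to 2.56 CPM in Control and 0.296 to 1.71 CPM in sgTWIST1 tumors.

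PRRX1, the homeobox gene most closely tied to the mesenchymal state, was at 0.986, 4.28, 0.342 and 0.949 CPM in Control tumors and at 1.60, 3.64, 3.67 and 0.259 CPM in sgTWIST1 tumors. Its order across the tumors was nearly that of the olfactory receptor genes, with the highest values in Control tumor 2 and sgTWIST1 tumors 2 and 3 and the lowest in Control tumor 3 and sgTWIST1 tumor 4. MEOX1, MEOX2 and RUNX2 followed the same order of high and low tumors. The Pearson correlation of their log2 CPM with the log2 olfactory receptor level over the 8 tumors was highest for FOSL1, at 0.942, followed by 0.936 for PRRX1, 0.916 for MEOX2, 0.899 for RUNX2, 0.891 for MEOX1 and 0.759 for WWTR1. It was 0.646 for YAP1, 0.601 for RUNX1, 0.370 for TBX18 and 0.226 for FOSL2. These are descriptions over libraries that differ in this background, and the part of the background in the values of the members was not tested. Log2(FC) in tumors was between -0.83 and -0.41 for PRRX1, MEOX1, MEOX2 and RUNX2, with adjusted p values from 0.789 to 0.887.

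An interaction term compared the effect in tumors with that in cells, and 2 members passed, TBX18 and FOSL2, where 5.42% of all genes did. With the olfactory receptor term FOSL1 passed as well (1.87, adjusted p = 0.0371). For TBX18 the difference was -4.91 ± 0.878 with an adjusted p of 0.00252. For FOSL2 it was -2.62 ± 0.322 with an adjusted p of 0.000119. The median difference over all genes was -0.18, and -0.05 with the size factors of DESeq2, so that a shift of this size is not particular to a member. Of the genes called in this test 31.6% had a positive difference, and 42.1% with the size factors of DESeq2.

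The larger part of both differences lay between the Control groups. Per the paper's methods, libraries of cells and of tumors were made from unlike amounts of RNA and given separate shares of lanes. Growth in the mouse and library preparation thus cannot be told apart in any comparison of tumors with clones. Between Control clones and Control tumors 2 members were DE, against 9.71% of all genes. In Control tumors FOSL2 was lower by 2.69 ± 0.231 on the log2 scale (adjusted p = 1.54e-06 by edgeR) and TBX18 by 3.21 ± 0.564 (adjusted p = 0.000678). Neither gene overlapped between Control clones and Control tumors, and the same was true of RUNX1, with 1.35 to 1.56 CPM in clones and 2.42 to 7.28 CPM in tumors, so that 3 of 10 members did not overlap beside 31.8% of all genes. RUNX1 was not DE, with a log2(FC) of 1.57 ± 0.808 (adjusted p = 0.184). It was DE with the olfactory receptor term (1.80, adjusted p = 0.0219) and without sgTWIST1 tumor 4 (1.57, adjusted p = 0.0262), a sample that enters this comparison through the shared fit of 4 groups. In this comparison the median over all genes was -0.07, and 0.12 with the size factors of DESeq2, and the share of calls that were higher in tumors was 34.5% and 51.1% in turn.

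Between sgTWIST1 clones and sgTWIST1 tumors no member was DE in the edgeR test, against 10.1% of all genes, and TBX18 alone was called by DESeq2. At an unadjusted p under 0.05 there was also only TBX18. FOSL2 stayed at a like level, 126 ± 22.4 CPM in clones and 120 ± 28.7 CPM in tumors, with a log2(FC) of -0.07 ± 0.222. TBX18 had a log2(FC) of 1.70 ± 0.673 (adjusted p = 0.0741), on means of 0.474 and 1.46 CPM. All 10 members overlapped between these groups, whereas 37.6% of all genes did not.

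The members also differed in how they varied together. Over the 14 samples and 45 pairs of members, the highest Pearson correlation of log2 CPM was 0.944 between PRRX1 and MEOX2, and 5 pairs, all among PRRX1, MEOX1, MEOX2 and RUNX2, were above 0.8. FOSL2 and RUNX1 had the lowest, at -0.638. Outside the members, the 2 genes whose log2 CPM was most like that of FOSL2 among 17232 were C7, a complement component (0.976), and VIM, which encodes the intermediate filament vimentin (0.976). These values are descriptions over samples that share genotype and condition within a group and that differ in olfactory receptor level within the groups of tumors.

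AP-1 partners were read from 12 further genes of the family, 11 of them tested. In cells 3 were upregulated (MAFF, ATF3 and BATF3) and 1 was downregulated by TWIST1, and in tumors 2 were upregulated (MAFF and MAFK). The call of BATF3 (1.02 ± 0.304) was lost without any 1 of 5 of the 6 clones, and that of MAFF in tumors without Control tumor 1, without Control tumor 2 or without the 3 tumors of highest olfactory receptor level. MAFF, a small MAF protein, had a log2(FC) of 1.47 ± 0.251 in cells and 1.46 ± 0.405 in tumors. ATF3, a stress-induced family member, had 20.2 ± 6.11 CPM in Control clones against 7.77 ± 1.37 in sgTWIST1 clones. The median log2(FC) of the list was 0.38 in cells and 0.02 in tumors. JUN, the usual partner of FOSL2 and named after its values had been seen, had 33.7 ± 4.32 CPM in Control tumors against 46.7 ± 5.61 CPM in those with sgTWIST1. It was not DE in tumors (log2(FC) -0.38 ± 0.15, adjusted p = 0.093 by edgeR). Nor was it DE in cells, where the log2(FC) had the opposite sign (0.36 ± 0.315).

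For the RUNX genes, 9 partner genes were tested. TLE1, a corepressor that RUNX proteins recruit, was upregulated by TWIST1 in tumors, with 100 ± 7.45 CPM in Control against 10.6 ± 1.17 CPM in sgTWIST1 tumors and a log2(FC) of 3.34 ± 0.142. CBFA2T2, of the ETO corepressor family, was upregulated in cells (1.29 ± 0.201). No partner was downregulated in either comparison. The list had a median log2(FC) of 0.13 in cells and of 0.23 in tumors.

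In the Hippo pathway 21 kinases and regulators were tested, and 5 were upregulated and 2 downregulated by TWIST1 in cells, and 5 and 1 in tumors. DCHS1, a protocadherin that feeds into the pathway, was at 73.6 ± 17.1 CPM in Control against 0.653 ± 0.163 CPM in sgTWIST1 clones, and at 256 ± 60.8 against 25.5 ± 36.0 CPM in tumors. The sgTWIST1 tumors ran from 7.14 to 79.5 CPM, and the highest was sgTWIST1 tumor 3. The log2(FC) of DCHS1 was 6.83 in cells and 3.42 in tumors, and 5.08 in tumors without sgTWIST1 tumor 3. FAT1, a related cadherin, was upregulated in both (1.83 ± 0.41 and 2.54 ± 0.599), although its call in cells was lost without Control clone 3 or sgTWIST1 clone 2. WWC1 (KIBRA), which activates the LATS kinases, was downregulated by TWIST1 (-4.00 ± 0.38 in cells and -2.51 ± 0.293 in tumors), and its relative WWC2 was upregulated (1.88 ± 0.149 and 1.91 ± 0.127).

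Among 6 TEAD and VGLL genes, which encode the DNA-binding partners of YAP1 and TAZ and their competitors, only TEAD3 was called, and it was upregulated by TWIST1 in cells (1.67 ± 0.345) and in tumors (2.47 ± 0.23). The medians of these 6 genes were 0.34 in cells and 0.90 in tumors.

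Of 22 known targets of YAP1 and TAZ, 20 were tested. In cells 4 were upregulated and 5 downregulated by TWIST1, and in tumors 2 and 3, with medians of 0.35 and -0.12. The genes called did not move one way. FSTL1, a secreted glycoprotein, was downregulated by TWIST1 (-6.74 ± 0.381 in cells and -2.53 ± 0.347 in tumors), as was MYOF (-2.79 ± 0.83 and -4.22 ± 0.808), which encodes a membrane repair protein. In cells MYOF was at -1.44 without sgTWIST1 clone 3, and its call was lost without that clone or any 1 of the Control clones. NT5E, which encodes CD73, was upregulated (7.44 ± 0.552 and 2.61 ± 0.47), as was the angiomotin family gene AMOTL2 in tumors (2.89 ± 0.43).

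A further 22 mesenchymal transcription factor genes, 21 of them tested, had 5 upregulated and 3 downregulated in cells and 4 and 2 in tumors, with medians of 0.55 and 0.35. IFI16, an interferon-inducible DNA sensor, was at 1.98 ± 1.25 CPM in Control against 317 ± 73.9 CPM in sgTWIST1 clones and at 1.296 ± 0.957 against 168 ± 18.5 CPM in tumors. BHLHE41, a circadian repressor, was downregulated by TWIST1 in tumors (-3.70 ± 0.657). SIX4 (2.27 ± 0.42 in cells and 2.05 ± 0.446 in tumors), a homeobox factor of muscle and neurons, and ID1 (3.52 ± 0.297 in tumors), an inhibitor of basic helix-loop-helix factors, were upregulated.

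The products of the mesenchymal state were read from 16 markers, of which 4 were upregulated and 4 downregulated by TWIST1 in cells and 3 and 4 in tumors, with medians of -0.11 and -0.17. VIM was at 185 ± 39.0 CPM in Control against 1382 ± 419 CPM in sgTWIST1 clones, and at 14.7 ± 7.47 against 708 ± 187 CPM in tumors (log2(FC) -2.93 and -5.52). TNC, which encodes the matrix protein tenascin C, was downregulated by TWIST1 in cells (-4.44 ± 0.532) and in tumors (-5.89 ± 0.624), and S100A6 in tumors (-2.52 ± 0.359). CDH11, a mesenchymal cadherin, was upregulated by TWIST1 (4.90 ± 0.386 and 3.00 ± 0.606). VIM and FOSL2 shared the order of the groups, lowest in Control tumors.

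All 17 adrenergic markers were tested. In cells 7 were upregulated and 2 downregulated by TWIST1, and in tumors 6 and 3, with medians of 0.93 and 0.84, beside medians of 0.04 and -0.06 over all genes. GATA2, a zinc finger factor of the sympathoadrenal lineage, had a log2(FC) of 2.05 ± 0.249 in cells and 3.12 ± 0.467 in tumors. TBX2, a T-box factor of the adrenergic core circuit, had 115 ± 13.6 CPM in Control tumors against 5.30 ± 1.92 in sgTWIST1 tumors (4.55 ± 0.273) but was not DE in cells. SOX11 was upregulated in tumors (3.37 ± 0.421) and downregulated in cells (-1.09 ± 0.339), whereas INSM1 was downregulated in both (-1.94 ± 0.318 and -3.08 ± 0.285). The call of SOX11 in cells was lost without any 1 of 4 of the 6 clones, with a log2(FC) of -1.29 to -0.89.

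The tumors held murine RNA, which made up 2.44% to 12.7% of the counts of Control and 3.77% to 13.97% of those of sgTWIST1 tumors. Reads that matched both species had been kept among the human counts. Of 16 human genes that mark endothelial, immune and perivascular cells and fibroblasts, 15 were tested, 1 of which was upregulated and 5 downregulated by TWIST1 in tumors, and 4 and 3 in cells, where no stroma is present. The summed level of the 15 genes was 2959 to 4110 CPM in Control and 1397 to 2314 CPM in sgTWIST1 tumors, and 4051 to 4472 against 2039 to 2190 CPM in clones. The human counts of the leukocyte gene PTPRC were 4 to 41 in Control and 1 to 44 in sgTWIST1 tumors. No gene of the list was at 0 in all tumors, and KDR had 0 counts in 1 sgTWIST1 tumor. The part of murine reads in the human values was not tested. FOSL2 was at like levels in sgTWIST1 clones, which had no stroma, and in sgTWIST1 tumors.

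In the murine stroma all 10 orthologs passed the filter. No ortholog was DE at an absolute log2(FC) of at least 0.5, and neither was any of the 12758 murine genes by edgeR, that is 0.0% of them. At an unadjusted p under 0.05 there were 657 murine genes and 0 orthologs, and DESeq2 called 54 murine genes. Wwtr1 had the highest murine CPM of the orthologs, at 261 ± 99.6 (SD, n = 4) in Control and 235 ± 64.8 in sgTWIST1 tumors. Fosl2, Prrx1 and Runx1 followed. Murine CPM were not divided by gene length, so that they do not rank the orthologs by abundance. Prrx1 was at 122, 123, 149 and 145 murine CPM in Control and at 64.0, 73.3, 156 and 140 in sgTWIST1 tumors, where tumors 3 and 4 lay within or above the Control range.

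Runx2 (log2(FC) -0.79 ± 0.364), Meox1 (-0.56 ± 0.272) and Meox2 (1.24 ± 0.75) had the largest murine differences, with adjusted p values of 0.972 to 1.00 by edgeR. Meox2 was at 16.1, 7.10, 14.9 and 14.1 murine CPM in Control and at 0, 0.719, 13.2 and 7.51 in sgTWIST1 tumors, on 0 to 129 counts. The murine totals behind these values ranged from 577479 counts in Control tumor 2 to 7248286 in Control tumor 3.

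Summed over the 8 tumors, the murine share of human and murine counts was 91.8% for WWTR1, 90.4% for PRRX1, 86.2% for MEOX1, 84.7% for YAP1 and 82.0% for RUNX1. These sums cover tumors of unequal murine depth, and by tumor the share ran from 34.9% to 99.1% for PRRX1, from 16.8% to 99.4% for YAP1 and from 21.8% to 99.6% for RUNX1, each lowest in Control tumor 2. For FOSL2 the summed share was 22.3%. It was 7.33% to 18.7% in sgTWIST1 tumors and 13.8% in Control tumor 2, but 59.3%, 77.9% and 72.2% in Control tumors 1, 3 and 4, where most FOSL2 counts were thus murine. The 2 tables differ in depth per cell of each species, which is not known, so that these shares are of counts and not of levels per cell.

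The genes around the members were examined to see whether a stretch of chromosome moved with them. The 20 nearest genes tested had median log2(FC) between -0.27 and 0.59 in cells and between -0.53 and 0.29 in tumors. For FOSL2, on chromosome 2 at 28615315 to 28640184 of GRCh37, the neighbours had a median of -0.53 in tumors with 1 of 20 downregulated and none upregulated. For YAP1, on chromosome 11 at 101981178 to 102104155, the median of the neighbours was 0.59 in cells, with 3 upregulated and 1 downregulated. In cells the neighbours of RUNX2 had a median of -0.27, with 1 upregulated and 6 downregulated. Those of MEOX2 had 3 upregulated and 3 downregulated, and those of TBX18 had 7 upregulated and 0 downregulated. In tumors the neighbours of TBX18 had a median of 0.06, with 2 upregulated and 1 downregulated. Among all genes tested, 14.2% were DE in cells and 10.9% in tumors. RUNX2 shares its locus with SUPT3H on the opposite strand, and RUNX1 with FKSG68 on the same strand, and since it is not given in the sources used here whether counting used the strand, their values are less certain.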

How the data were processed

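Total RNA depleted of ribosomal RNA had been sequenced by the authors as single-end reads. Per the labels and the paper's methods, reads were mapped with STAR 2.5.2b to hg19 and mm10 together, split by species, and counted per gene with RSEM 1.3.0. The deposited values are expected counts, which are not normalized, for 57820 human genes in 19 columns and for the murine genes in 8 columns. Reads matching both species were left out of the murine table. The GENCODE version is not given in the sources used here.

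Expected counts were rounded to whole numbers after the batches of a clone had been summed, which left 14 samples. Only sgTWIST1 clone 3 had no batch 2, and its human total was the lowest of the clones, at 21695694 counts. Human identifiers were matched to GENCODE 44 on GRCh37 (55538 found, 19404 of them protein-coding). The study filtered on log2 RPKM. The same limit on RPKM computed here, which need not keep the genes the study kept, would have left 2 members, so protein-coding genes were kept with filterByExpr (minimum count 10), 17232 in all, or 17231 in the fit of cells. DE was tested by quasi-likelihood in edgeR 4.0.16 (R 4.3.3) after TMM normalization, and p values were adjusted by Benjamini-Hochberg across every gene in the fit. Cells, tumors and murine genes were fitted apart, and the interaction and the comparisons of tumors with cells came from a fit of 4 groups, which share their samples with the other comparisons. SE was derived from the F statistic. CPM were computed on TMM-scaled totals of protein-coding counts, and RPKM divides them by the exon length in kilobases. DESeq2 1.42.0 served as an alternative. The tests were checked on simulated data.

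A floor of 3 counts corresponded to 0.0905 to 0.173 CPM in clones and to 0.084 to 0.159 CPM in tumors, and covers counting error only. The members and lists were chosen with earlier results of these data known, and the lists came from general knowledge. Named genes were the members, TWIST1 and TRIM28, at most 4 genes per list that were DE in cells or tumors, ordered by absolute log2(FC) in tumors, and the 2 genes most like FOSL2. PTPRC, KDR, JUN and TEAD1 were named beside them after their values had been seen. Promoters are from RefSeq. Proteins and other data of the study were not analysed here. Figures were drawn with matplotlib.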

Additional observations from a re-analysis of the deposited data

Results flagged for a closer look

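For 2 members the log2(FC) of Control against sgTWIST1 differed between tumors and cells in the test of that difference. For TBX18 the log2(FC) in tumors minus that in cells was -4.91, since the gene was high in Control clones alone. For FOSL2 it was -2.62, since the gene was low in Control tumors alone. Both were called in each of the 14 fits that left out 1 sample.

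In 3 of 40 groups of 4 tumors, 1 tumor stood apart from the other three by Dixon's criterion at the 95% level, while chance gives about 1 in 20. PRRX1 was at 4.28 CPM in Control tumor 2, the tumor with the highest olfactory receptor level. Murine Fosl2 was at 238 and murine Wwtr1 at 410 murine CPM in Control tumor 1.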

How the results depend on the processing

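FOSL2 in tumors and TBX18 in cells remained DE under all alternatives run, and the differences of both between tumors and cells under all alternatives of that test, where the olfactory receptor term added FOSL1. The number of members called in cells was 3, and 1 with a log2 RPKM filter after that of the study, which leaves FOSL2 and TBX18 to be tested, and 1 with all 4 groups in 1 fit. Without single clones it was 1 to 3, and FOSL1 was also lost in batch 1 alone and with the olfactory receptor term. In tumors it was 1, without single tumors 1 throughout, 3 with the olfactory receptor term and 2 without the 3 tumors of highest olfactory receptor level. Between sgTWIST1 clones and tumors it was 0, but 1 with DESeq2, 2 with the olfactory receptor term (FOSL1 and RUNX2) and 0 to 2 without single samples. Over all genes, 2451 were called in cells and 1583 with the RPKM filter, and between sgTWIST1 clones and tumors 1736, 2822 with all gene types. Among murine genes 0 were called, 54 by DESeq2, 497 without a filter, which called 1 ortholog, Meox2, and 0 to 26 without single tumors. The causes of these changes were not tested.

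Values below the threshold changed sign as follows. In cells RUNX2 was at -0.080 with the olfactory receptor term, -0.15 in batch 1 alone and -0.059 to 0.40 without single clones, and the adrenergic gene TBX2 at 0.23 with that term and -0.44 to 0.21. In tumors FOSL1 was at 0.050 with DESeq2 and also with its size factors, 0.13 with all gene types, 0.14 with the olfactory receptor term, 0.20 without the 3 tumors and -0.96 to 0.28 without single tumors, and MEOX1 at -1.29 to 0.20. For the difference between tumors and cells WWTR1 was at 0.019 with DESeq2, 0.020 with its size factors, 0.20 with all gene types, 0.27 with the term, 0.61 without the 3 tumors and -0.55 to 0.59 without single samples. MEOX1 was at 0.14, 0.42 and 0.075 in the last 3 of these fits and -0.99 to 0.50, YAP1 at 0.31 with the term, 1.28 without the 3 tumors and -0.94 to 0.036, and RUNX1 at -0.092 to 0.78. Between Control clones and tumors YAP1 was at 0.13 with DESeq2 and its size factors, 0.030 with all gene types, 0.087 with the term and -0.37 to 0.32, and MEOX2 at 0.017 and 0.012 with DESeq2 and its size factors and -1.10 to 0.55. Without the 3 tumors PRRX1 was at -0.70 and FOSL1 at -0.55, and without single samples they were at -0.70 to 0.64 and -0.55 to 0.60, and WWTR1 at -0.67 to 0.16. Between sgTWIST1 clones and tumors FOSL2 was at 0.13 with the RPKM filter and -0.21 to 0.074, and YAP1 at -0.22 with the term, -1.65 without the 3 tumors and -0.089 to 0.85. There PRRX1 was at -0.13, MEOX1 at -0.066 and RUNX1 at -0.38 without the 3 tumors. Murine Fosl1 was at -0.11 to 0.70, Runx1 at -0.021 to 0.51 and Wwtr1 at -0.15 to 0.30 without single tumors.

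With the replicate number as a block, 3 members and 2541 genes were called in cells, 1 member and 1856 genes in tumors, and 0 orthologs and 5 murine genes. Deviations of samples with the same number had correlations of 0.0758 to 0.159 in cells and -0.662 to 0.742 in tumors. In cells each clone correlated best with its own number, and clones of unlike number had correlations of -0.154 to 0.0210. A number was not taken as a pair in the main fits, and whether clones of the same number share a source was not tested. At a few counts per sample counting error alone is large.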
